A study of Mus musculus with 6 samples.

Results

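The endothelin and adrenomedullin genes were examined in tissue taken from either side of the aorta of mouse embryos. The set was chosen by gene symbol and comprises peptides, the enzymes that process them and their receptors. Of its 10 genes, 9 were named in the platform table, out of 24015 genes named on the array. The other, the endothelin receptor gene Ednra, was not analysed here. The 9 were the endothelin peptides Edn1, Edn2 and Edn3, the converting enzymes Ece1 and Ece2, the endothelin receptor Ednrb, the peptide Adm, and Calcrl and Ramp2, which together form its receptor.

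The series compared dorsal aortic tissue, which lies between the aortic roof and the notochord, with ventral aortic tissue, which lies beneath the vessel. All embryos were of the C57Bl/6 strain at embryonic day 11.5, with no treatment or mutation named in the labels. Both tissues were cut by laser from unfixed cryosections 20 µm thick, and 200 to 1000 pg of total RNA was amplified before hybridisation. There were 3 arrays of each tissue, labelled as biological replicates 1 to 3, and this number limits the precision of every value.

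Endothelins are short peptides cut from larger precursors by the membrane proteases Ece1 and Ece2, and they act on G protein-coupled receptors. They constrict vessels in the adult, and in the embryo they guide neural crest derivatives. Endothelin-3 and its receptor Ednrb are required for melanocytes and for the enteric neurons of the distal gut. Adrenomedullin dilates vessels and is needed for blood and lymphatic vessels to form. It signals through Calcrl, which binds it only when paired with the accessory protein Ramp2 or Ramp3.

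None of the endothelin and adrenomedullin genes passed the test for a difference between ventral and dorsal tissue. The ones with the largest differences were Calcrl, 2.25-fold higher on average in ventral tissue, and Ece1, 1.93-fold higher. Ece1 was the one gene whose arrays did not overlap between the tissues, which was also the case for 15.4% of all genes tested. The endothelin peptides differed little, and the means of Edn1, Edn2 and Adm lay below the median of all probe sets, 4.52 on the log2 scale.

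Levels are given as deposited, on a log2 scale, so that a difference of 1 is a doubling. Genes were tested where their mean over the 6 arrays reached 4.52, the median of all probe sets, which left 12028 genes. Of the 9 genes, 6 were tested and 3 (Edn1, Edn2 and Adm) fell below this brightness filter. In limma, with Benjamini-Hochberg adjustment over all 12028 genes, 0 of the 6 passed an adjusted p of 0.05, where 0.515% of all genes tested passed. At an unadjusted p under 0.05, 2 of the 6 passed, where 10.7% of all genes tested did. The tissues' arrays did not overlap for 1 of the 6, against 15.4% of all genes tested. Log2 differences were positive for 5 of the 6, with a median of 0.42, while 47.7% of all genes tested had a positive value and their median was −0.01. The least difference among the 62 genes that passed was 2.50-fold, or 1.32 on the log2 scale.

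Marker genes differed between the tissues, but the lists were chosen with earlier results of these data known, so they do not test tissue identity. Of 8 markers of the sclerotome, the source of the vertebrae, 6 were tested and 2 passed. Differences were negative for 5 of the 6 and positive for Foxc2 (0.22 ± 0.18). Their mean was 6.77 to 7.54 on the dorsal arrays and 5.53 to 5.81 on the ventral arrays. Pax1 (log2 difference −2.60 ± 0.24 (SE), adjusted p = 0.0183 in limma) and Col2a1 (−1.75 ± 0.19, adjusted p = 0.0258) were higher in dorsal tissue. Col2a1 did not pass without replicate 1 (adjusted p = 0.0513) or replicate 2 (0.0557), and without the brightness filter neither gene passed (0.0756 for Pax1 and 0.0816 for Col2a1). Of 10 markers of coelomic epithelium and gonadal ridge, 8 were tested, 8 had positive differences and 1 passed. Their mean was 4.52 to 4.77 on the dorsal and 6.02 to 6.34 on the ventral arrays. The one that passed, Tcf21, was 26.0-fold higher in ventral tissue (adjusted p = 0.00347 in limma). Its dorsal mean, 3.95, lay below the brightness filter, which Tcf21 reached through its ventral arrays. Without the block, Tcf21 did not pass when dorsal 1, dorsal 3, ventral 2 or ventral 3 was left out (adjusted p = 0.0981, 0.0688, 0.117 and 0.102 in limma). Nor did Col2a1 without dorsal 1 (0.0519) or ventral 2 (0.0577). Arrays correlated by 0.956 to 0.976 across all probe sets, which are not independent replicates.

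**Figure D1:**
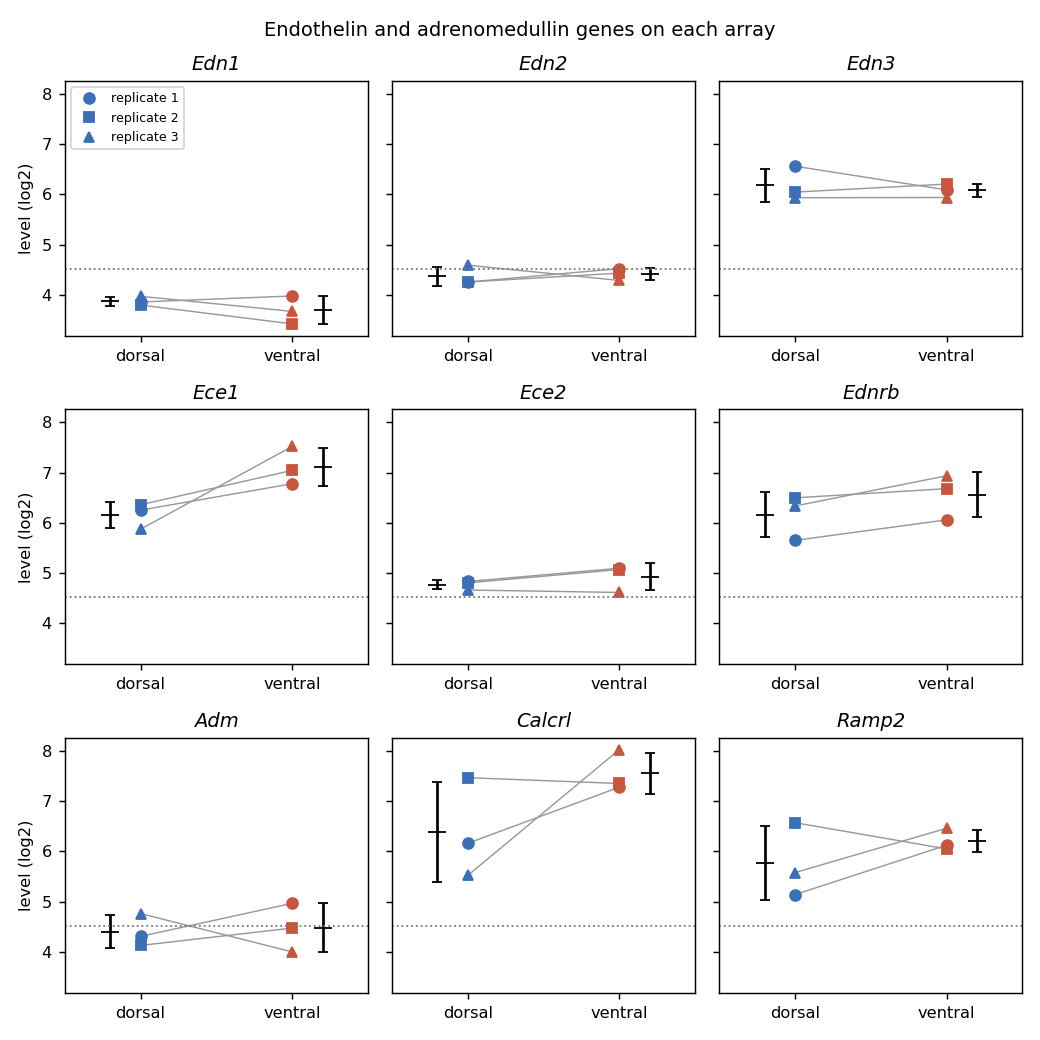
Deposited log2 level of each of the 9 genes (vertical axis) on the dorsal (blue) and ventral (red) arrays, with a symbol for each replicate number, lines joining arrays of the same number, and the mean ± SD of each tissue in black. The dotted line is the brightness filter at 4.52. All Ece1 ventral points lie above the dorsal ones, while dorsal 2 stands high for Calcrl and Ramp2.

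Ece1 and Calcrl had the largest differences, so the reference sequence before their start sites is shown. RefSeq promoter entries of the build GRCm38.p6 covered 8 of the 9 genes. Ece1 has 4 entries, and the deposited value is 1 per gene, so that transcripts from these starts cannot be told apart. The lines give the 120 bases that end at the base before the start, on the gene's strand, for Calcrl and for 3 of the Ece1 starts, the remaining one overlapping the first. Capitals mark GGAA on either strand, the core that ETS factors bind.
Calcrl, chr2:84425267-84425386, minus strand: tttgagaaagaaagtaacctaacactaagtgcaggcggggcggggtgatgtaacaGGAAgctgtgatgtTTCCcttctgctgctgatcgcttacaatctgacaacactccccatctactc
Ece1, chr4:137862117-137862236, plus strand: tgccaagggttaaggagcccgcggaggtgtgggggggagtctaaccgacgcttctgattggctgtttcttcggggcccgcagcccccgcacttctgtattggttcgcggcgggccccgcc
Ece1, chr4:137913438-137913557, plus strand: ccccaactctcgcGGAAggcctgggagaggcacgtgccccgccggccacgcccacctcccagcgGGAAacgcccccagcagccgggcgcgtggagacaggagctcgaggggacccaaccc
Ece1, chr4:137920673-137920792, plus strand: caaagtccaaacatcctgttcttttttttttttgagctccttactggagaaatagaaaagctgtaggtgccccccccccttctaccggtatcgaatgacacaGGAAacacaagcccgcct
In the 250 bases before the start, GGAA occurred 3 times for Calcrl, and 0, 3 and 2 times for the Ece1 starts in the order shown. These letters are common, being present in 93.4% of 32851 promoter entries. The letters ACGTG, a core bound by hypoxia-inducible factors, were present for the Ece1 start at chr4:137913438-137913557 and for Ece2, and in 16.6% of all entries. The other form of that core, GCGTG, occurred 2 times for Adm and for that same Ece1 start, and 1 time for Edn2, Ednrb and each of the other Ece1 starts except the last shown. It was present in 28.2% of all entries. A match of letters describes the sequence and does not show that a factor binds.

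Among the peptides, Edn1, the main endothelin of vascular endothelium, was at 3.86, 3.80 and 3.97 on dorsal arrays 1, 2 and 3 and at 3.98, 3.42 and 3.67 on ventral arrays 1, 2 and 3. All of these lay below the brightness filter, and the tissues overlapped. In the fit without the filter, its log2 difference was −0.19 ± 0.16 (SE; 95% interval −0.60 to 0.22, adjusted p = 0.851 in limma). At such levels arrays can compress differences, which was not measured here, so the interval may be too narrow for the transcript itself.

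Edn2, an endothelin known best from gut and ovary, was at 4.25, 4.26 and 4.59 in dorsal and 4.52, 4.43 and 4.29 in ventral tissue. The values interleaved, with the highest and the lowest both dorsal. Ventral and dorsal tissue differed by 0.05 ± 0.17 (95% interval −0.39 to 0.48, adjusted p = 0.974).

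Edn3, the ligand that acts through Ednrb on neural crest cells, was the one endothelin peptide above the filter. Its dorsal arrays were at 6.56, 6.04 and 5.93 and its ventral arrays at 6.09, 6.20 and 5.94. Dorsal 1 was the highest of the 6, and the other arrays of both tissues lay within the same narrow range. In the fit, its log2 difference was −0.10 ± 0.20 (95% interval −0.58 to 0.38, adjusted p = 0.92 in limma), and without replicate 1 it was 0.08, so its direction rested on that pair.

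Among the converting enzymes, Ece1, the principal enzyme that releases mature endothelins, was at 6.25, 6.36 and 5.87 in dorsal tissue and at 6.78, 7.04 and 7.52 in ventral tissue. Every ventral array was above every dorsal array, and ventral exceeded dorsal by 0.53, 0.68 and 1.65 in pairs 1, 2 and 3. The log2 difference was 0.95 ± 0.26 (SE; 95% interval 0.33 to 1.57). The ventral mean was 7.11 ± 0.38 (SD, n = 3) and the dorsal mean 6.16 ± 0.26 (SD, n = 3). The unadjusted p was 0.00907 and the adjusted p 0.249 in limma. Of all genes tested, 3.09% had a difference at least as large in either direction. Without replicate 3, the pair with the greatest gap, the difference was 0.60 (adjusted p = 0.494), and without replicates 1 and 2 it was 1.17 and 1.09.

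Ece2, a related protease of neural and endocrine cells, was at 4.83, 4.80 and 4.66 in dorsal and 5.10, 5.07 and 4.61 in ventral tissue. Ventral arrays 1 and 2 were above all dorsal arrays, while ventral 3 was the lowest of the 6. This gave a log2 difference of 0.16 ± 0.18 (95% interval −0.27 to 0.59, adjusted p = 0.837).

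Ednrb, the receptor that binds all endothelins with similar affinity, was at 5.65, 6.50 and 6.33 in dorsal and 6.06, 6.68 and 6.93 in ventral tissue. The tissues overlapped, but within each replicate number the ventral array was the higher, by 0.41, 0.18 and 0.60. The log2 difference was 0.40 ± 0.18 (95% interval −0.04 to 0.83, adjusted p = 0.506), and without the replicate number as a block the standard error was 0.30 (adjusted p = 0.741). Of all genes tested, 15.3% were higher in ventral tissue in all 3 pairs, as were Ece1 and Ednrb.

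Adm was at 4.31, 4.13 and 4.76 in dorsal and 4.96, 4.47 and 3.999 in ventral tissue. The order of the tissues differed between pairs: ventral was higher by 0.66 and 0.35 in pairs 1 and 2 and lower in pair 3 (−0.76). Its log2 difference was 0.08 ± 0.30 (95% interval −0.67 to 0.83, adjusted p = 0.975), and without replicate 1 it was −0.21.

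Calcrl, the receptor for adrenomedullin and, with other partners, for calcitonin gene-related peptide, was at 6.16, 7.46 and 5.52 in dorsal tissue and at 7.28, 7.35 and 8.02 in ventral tissue. Dorsal 2 lay above ventral 1 and 2, and the other dorsal arrays lay below all ventral ones. Pairs 1 and 3 differed by 1.12 and 2.50 towards ventral tissue and pair 2 by −0.11. The log2 difference was 1.17 ± 0.45 (SE; 95% interval 0.07 to 2.27). The ventral mean was 7.55 ± 0.41 (SD, n = 3) and the dorsal mean 6.38 ± 0.99 (SD, n = 3). The unadjusted p was 0.0399 and the adjusted p 0.439 in limma. The value depended on single pairs, at 1.81 without replicate 2 (adjusted p = 0.104) and 0.50 without replicate 3 (adjusted p = 0.733).

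Ramp2, which carries Calcrl to the cell surface and makes it an adrenomedullin receptor, was at 5.14, 6.57 and 5.58 in dorsal and 6.12, 6.05 and 6.46 in ventral tissue. Dorsal 2 was the highest array and dorsal 1 and 3 were the lowest. For Ramp2 the log2 difference was 0.45 ± 0.32 (95% interval −0.32 to 1.22, adjusted p = 0.705 in limma). It was 0.18 without replicate 1, 0.93 without replicate 2 (adjusted p = 0.237) and 0.23 without replicate 3.

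Ordered by their differences, Calcrl came first, followed by Ece1, Ramp2, Ednrb, Ece2, Adm, Edn2, Edn3 and Edn1. The 95% intervals of neighbours in this order overlapped in every case. Contrasts between genes were not tested.

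**Figure D2:**
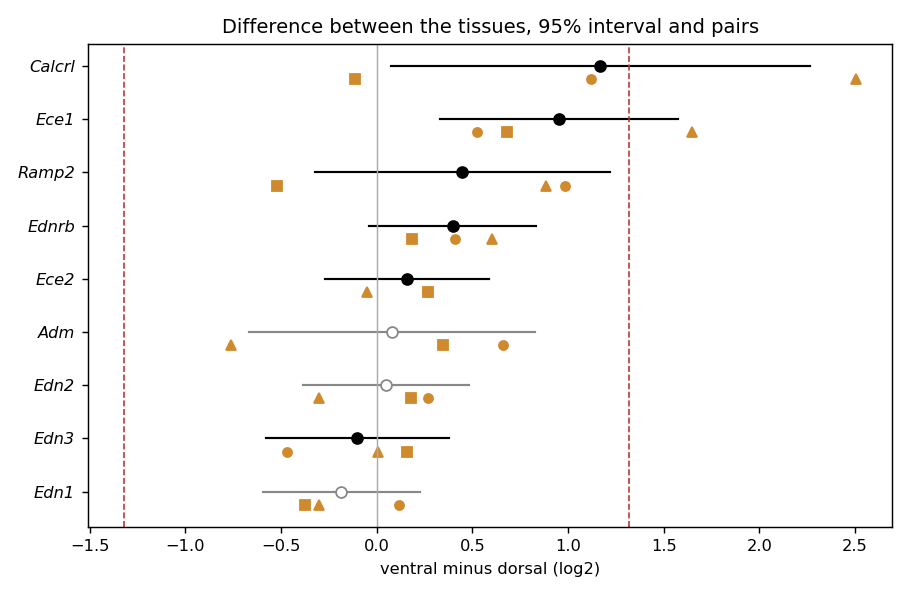
Ventral minus dorsal difference (log2, horizontal axis) of each gene with its 95% interval from limma (filled circles, tested genes; open circles, genes below the brightness filter) and the values of pairs 1 (circle), 2 (square) and 3 (triangle) in orange beneath. Dashed lines at 1.32 on either side mark the least difference among genes that passed. Calcrl and Ece1 have intervals above 0 before adjustment.

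Calcrl, Ramp2 and Ece1 are expressed in endothelium, so their levels were set beside endothelial markers. In microdissected tissue, fewer cells of a type and less RNA per cell cannot be told apart. Of 18 endothelial markers, 16 were tested, 14 had positive differences and 0 passed, with a median difference of 0.44. Unadjusted, 5 of the 16 had a p under 0.05 in limma, all higher in ventral tissue. Of all genes tested, 10.7% had such a p in either direction. The 2 negative differences were those of Erg (−0.33 ± 0.22) and Sox17 (−0.01 ± 0.17). The mean of the 16 was 5.28, 5.93 and 5.47 on dorsal arrays 1 to 3 and 5.73, 6.02 and 6.14 on ventral arrays 1 to 3. Dorsal 2, where Calcrl and Ramp2 were high, was above ventral 1 for these markers as well. The 2 markers below the filter were Esam and Clec14a. Without the filter their differences were 0.32 ± 0.14 and −0.57 ± 0.22 (adjusted p = 0.641 and 0.607 in limma). For Clec14a every dorsal array was above every ventral array.

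Relative to the mean of the endothelial markers on the same array, Calcrl stood at 0.87, 1.53 and 0.05 in dorsal and 1.55, 1.33 and 1.88 in ventral tissue. Its ventral minus dorsal difference on this relative scale was 0.77, and the tissues overlapped through dorsal 2. Ramp2 stood at −0.15, 0.64 and 0.11 in dorsal and 0.39, 0.02 and 0.32 in ventral tissue, a difference of 0.04 against 0.45 on the plain scale.

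Ece1 stood at 0.97, 0.43 and 0.41 relative to the markers in dorsal and 1.05, 1.02 and 1.38 in ventral tissue. The tissues did not overlap on this scale, and the difference was 0.55. Edn1 stood at −1.42, −2.13 and −1.49 in dorsal and −1.75, −2.60 and −2.47 in ventral tissue, a difference of −0.59, with Edn1 itself below the filter. The part of endothelial content in these differences was not tested.

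**Figure D3:**
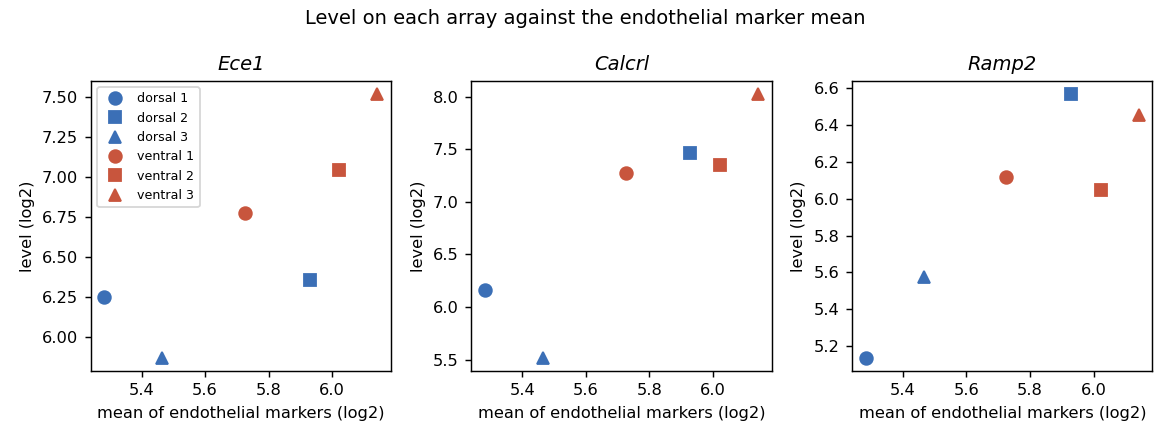
Level of Ece1, Calcrl and Ramp2 (log2, vertical axes) against the mean level of 16 endothelial markers (log2, horizontal axes) on each of the 6 arrays, dorsal in blue and ventral in red, with a symbol for each replicate number. Dorsal 2 has an endothelial mean of 5.93 and lies with the ventral arrays for Calcrl and Ramp2, but with the dorsal arrays for Ece1.

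Markers of smooth muscle and mural cells were likewise at higher levels on the ventral arrays. Their mean was 5.79, 6.15 and 5.57 in dorsal and 7.17, 6.67 and 6.21 in ventral tissue, and 13 of 15 tested markers had positive differences. The pericyte regulator Rgs5 was the one marker that passed (log2 difference 2.18 ± 0.24, adjusted p = 0.0258 in limma). It did not pass without the replicate block (adjusted p = 0.0732 in limma) or with a random block (0.0586). Nor did it pass without replicate 3 (0.0675) or the brightness filter (0.106). Without the block, Rgs5 did not pass when any single array was left out (adjusted p from 0.0913 to 0.195 in limma). Macrophage markers were positive in 11 of 11, with a mean of 5.35 to 6.02 in dorsal and 5.88 to 6.35 in ventral tissue and 0 passing. The part of these cells in the Ece1 and Calcrl differences was not tested.

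For Edn3 and Ednrb the markers of neural crest and Schwann precursors were set alongside. Of 14 listed, 12 were named and 9 tested, of which 7 had negative differences and 0 passed. Sox10, Mitf and Ngfr lay below the filter. The mean of the 9 was 6.04, 6.29 and 6.42 in dorsal and 5.72, 5.72 and 5.91 in ventral tissue. This gap in the mean came mainly from Tfap2b (−1.58 ± 0.32, adjusted p = 0.136 in limma) and Fabp7 (−1.93 ± 0.82, adjusted p = 0.472), the latter at 10.8 on dorsal 3. Of the 9 markers, 1 (Tfap2a) had tissues that did not overlap, against 15.4% of all genes tested. Without Tfap2b and Fabp7, left out after their values were seen, the mean of the other 7 was 5.69, 5.99 and 5.61 in dorsal and 5.61, 5.59 and 5.78 in ventral tissue, which overlapped.

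Relative to the mean of the 9 crest markers, Ednrb stood at −0.39, 0.20 and −0.09 in dorsal and 0.34, 0.96 and 1.03 in ventral tissue, with no overlap and a difference of 0.87. Relative to the 7 markers without Tfap2b and Fabp7 it stood at −0.04, 0.51 and 0.72 in dorsal and 0.45, 1.09 and 1.15 in ventral tissue. There the tissues overlapped and the difference was 0.50. Relative to the 9 markers, Edn3 stood at 0.52, −0.25 and −0.49 in dorsal and 0.37, 0.48 and 0.03 in ventral tissue, which overlapped. Sympathoadrenal markers varied widely within each tissue, with means of 5.48 to 7.02 in dorsal and 4.75 to 6.75 in ventral tissue, and 0 of 8 passed. Erythroid markers were negative in 9 of 9, with means of 7.12 to 7.27 in dorsal and 6.47 to 6.86 in ventral tissue and 0 passing.

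Adm is a classical target of hypoxia signalling. Of 13 tested hypoxia response genes, 6 had positive and 7 negative differences, with a median of −0.04 and 0 passing. Their mean was highest on ventral 3 (6.71), the array with the lowest Adm, and lowest on ventral 1 (6.16), the array with the highest Adm. Relative to that mean, Adm stood at −1.92, −2.26 and −1.65 in dorsal and −1.19, −1.87 and −2.72 in ventral tissue. Adm itself averaged below the brightness filter, and a link between its level and hypoxia was not tested.

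The wider pathway was described from 5 lists holding 91 genes, of which 84 were named and 50 tested. In limma 0 of the 50 passed, against 0.515% of all genes tested. At an unadjusted p under 0.05, 6 were higher in ventral and 1 in dorsal tissue, which is 7 of 50 where 10.7% of all genes tested were as low. The median difference of the 50 was 0.08.

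Of 8 tested genes for other enzymes that cut, modify or clear these peptides, 3 had positive and 5 negative differences, with a median of −0.10. Mme, or neprilysin, which degrades endothelins and natriuretic peptides, was at 7.36, 7.06 and 7.69 in dorsal and 5.68, 6.76 and 7.16 in ventral tissue. Ventral 1 was the lowest by a wide margin, and the log2 difference was −0.84 ± 0.29 (SE; adjusted p = 0.369 in limma). Pam, which amidates adrenomedullin, had a difference of 0.54 ± 0.32, with ventral 3 (7.60) highest and ventral 1 (6.14) lowest. Ecel1, a neuronal relative of Ece1 and Ece2 singled out after its values were seen, lay below the filter at 3.92 to 4.14 in dorsal and 4.23 to 4.88 in ventral tissue (adjusted p = 0.564 without the filter).

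On the list of calcitonin family peptides, receptors and associated genes, only Ackr3 and Crcp of 8 named genes were tested. Ackr3, which takes up adrenomedullin and the chemokine Cxcl12, was at 7.46, 7.04 and 7.87 in dorsal and 8.12, 7.88 and 7.71 in ventral tissue. Ventral 1 and 2 were above all dorsal arrays, and the log2 difference was 0.45 ± 0.24 (adjusted p = 0.586). Crcp had a difference of 0.05 ± 0.21. The accessory proteins Ramp1 (4.16 to 4.91 over the 6 arrays) and Ramp3 (3.61 to 3.70) averaged below the filter, as did Adm2, Calcb, Iapp and Calcr. Of the genes Ramp1, Ramp2 and Ramp3, only Ramp2 was therefore tested.

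Of 18 tested genes for G proteins, phospholipases and receptor regulators, 10 had positive differences, with a median of 0.01. Plcb4, a phospholipase that acts downstream of Gq, had the highest (0.64 ± 0.53) and Arrb1, a beta-arrestin, the lowest (−0.21 ± 0.17). Plcb4 ranged from 5.14 to 7.66 within the ventral arrays alone. Genes that respond to endothelin in cranial neural crest had positive differences in 5 of 7, with a median of 0.27. Hand2, a transcription factor of that response, was at 6.60, 6.67 and 5.94 in dorsal and 6.71, 7.42 and 7.26 in ventral tissue. The tissues did not overlap for Hand2, 1 of the 7, against 15.4% of all genes tested. Its log2 difference was 0.73 ± 0.26 (adjusted p = 0.377 in limma). Dlx3 had the lowest (−0.19 ± 0.19). Hand2 also marks sympathetic and visceral mesenchymal cells, so the list does not stand for endothelin signalling alone.

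Among 15 tested genes of other vasoactive peptides and of nitric oxide signalling, 12 had positive differences, with a median of 0.16. Gucy1a1, a subunit of the guanylate cyclase that senses nitric oxide, was at 4.32, 5.40 and 5.02 in dorsal and 6.57, 6.71 and 5.91 in ventral tissue. For 3 of the 15, Gucy1a1 among them, the tissues did not overlap, against 15.4% of all genes tested. The log2 difference of Gucy1a1 was 1.48 ± 0.28 (adjusted p = 0.117 in limma). Agtr2, an angiotensin receptor of embryonic mesenchyme, had the lowest value (−1.92 ± 1.11), with 3.76 on ventral 1 and 7.36 to 9.39 on the other 5 arrays.

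Further genes singled out after their values were seen were the natriuretic peptide receptor Npr1 and the apelin receptor Aplnr. Npr1 was at 4.18, 4.20 and 4.24 in dorsal and 5.19, 4.92 and 5.51 in ventral tissue, a log2 difference of 1.00 ± 0.19 (adjusted p = 0.118 in limma). Every dorsal array was below 4.52, so Npr1 reached the brightness filter only through its ventral arrays. Aplnr was at 5.23, 4.99 and 5.81 in dorsal and 5.72, 6.98 and 6.90 in ventral tissue, a difference of 1.19 ± 0.30 (adjusted p = 0.208). The rest of those with an unadjusted p under 0.05 and higher values in ventral tissue were Gucy1a1, Hand2, Mef2c and Ptgis.

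**Figure D4:**
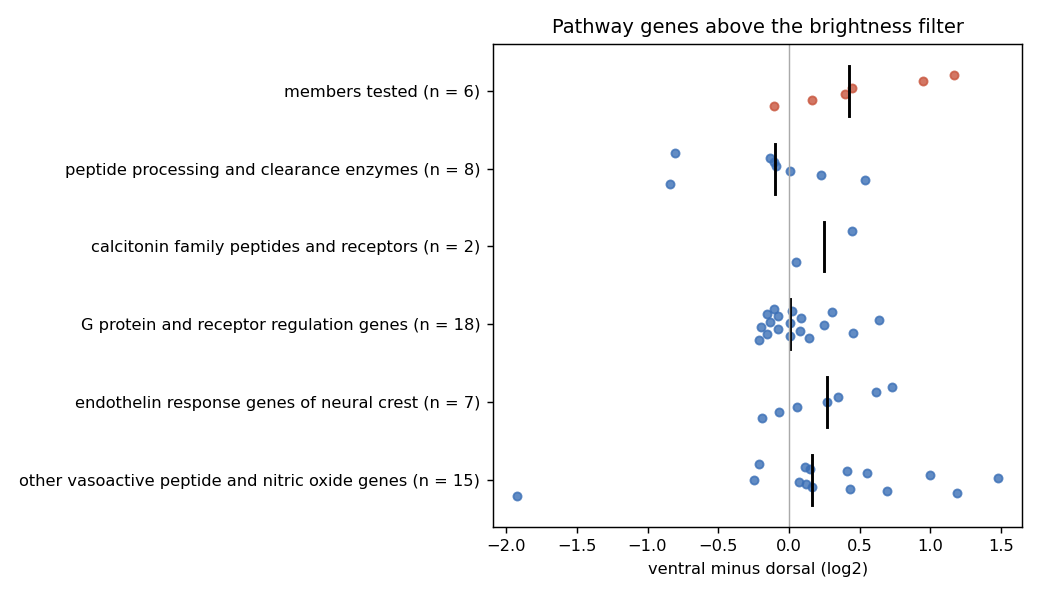
Ventral minus dorsal difference (log2, horizontal axis) of each gene above the brightness filter, for the 6 tested endothelin and adrenomedullin genes (red) and for 5 lists of pathway genes (blue). Black bars are medians, which are 0.42 for the 6 genes and lie from −0.10 to 0.27 for the lists.

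The genes whose pattern over the 6 arrays was most like that of the 3 most variable tested members were found by Pearson correlation over those 6 arrays. For Calcrl, which ranged over 2.50, they were Dusp12 (r = 0.987), Ggcx (0.979) and Cthrc1 (0.978). For Ece1, which ranged over 1.65, they were Slc9a3r1, Sh3pxd2a and Rps19bp1 (0.994, 0.994 and 0.993). For Ramp2, which ranged over 1.43, they were Sgtb, Alkbh7 and Haus1 (0.988, 0.982 and 0.978). An r of 0.9, a looser cut, was exceeded with Calcrl, Ece1 and Ramp2 by 95, 200 and 46 genes. These came from the 12028 tested, less predicted genes and clone names. With so few arrays such values describe these samples only.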

How the data were processed

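Each deposited value is the log2 level of 1 probe set on 1 array. Per the submitters' processing notes, Affymetrix Expression Console and RMA were used. RMA subtracts background, equalises the distributions of the arrays by quantiles and combines probes. Tool versions are not stated, and a build is not given in the sources used here. Per the labels' protocols, RNA was amplified by a single-primer isothermal method, which can distort weak against strong transcripts. Array medians lay between 4.49 and 4.55. A single symbol was available for 24015 of 24973 probe sets, several for 0, and 958 stay unnamed here.

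The tissues were compared in R 4.3.3 with limma 3.58.1 (lmFit, eBayes without trend), two-sided, the replicate number entering as a fixed block. Genes were kept where their mean reached the median over probe sets, and each test had 6.41 degrees of freedom. Genes under that level were read from the same fit run on every named gene. The script was tested on simulated data. Adjusted p-values are limma's, SE is the moderated standard error, and SD is taken over the arrays of a tissue.

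Both tissues came from the same embryos per the labels, which do not say that a number marks an embryo. After subtraction of tissue means, arrays sharing a number correlated by 0.0992, 0.0763 and 0.226. Pooling of tissue is not described, so p-values measure the spread between these samples. Members and gene lists were chosen with earlier results of these data known. The text names all 9 genes, the highest and lowest gene of each pathway list and any that passed, marker genes that passed, and the 3 genes most like each of the 3 members of largest range, leaving out predicted genes and clone names. Alternatives changed the block, the filter, the normalization, the variance model and the arrays included.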

Additional observations from a re-analysis of the deposited data

How the results depend on the processing

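None of the 9 endothelin and adrenomedullin genes passed under any alternative run, with adjusted p in limma from 0.104 to 0.998. Without the replicate block 59 genes passed over all genes, in place of 62, and the block changed no call of these 9. Without the brightness filter 10 passed. Leaving out 1 pair at a time gave 48 to 75 genes. Leaving out 1 array without the block, an alternative chosen after seeing the data, gave 12, 23 and 40 genes for dorsal 1, 2 and 3 and 104, 13 and 18 for ventral 1, 2 and 3. Of the pathway genes 0 passed under each alternative, except 1 (Gucy1b1) without ventral 1 and the block. The number of tested members whose tissues do not overlap, 1 with all arrays, was 1 to 3 when arrays were left out. Ednrb was added without replicate 1, Calcrl and Ramp2 without replicate 2, and Ece2 without replicate 3. Calcrl, Ece1, Ece2, Ednrb and Ramp2 stayed positive and Edn1 negative under every alternative run. Adm turned to −0.208 without replicate 1 and −0.0516 without replicate 2, and without the block to −0.0548 without dorsal 2 and −0.162 without ventral 1. Edn2 turned to −0.0629 and −0.0178 without replicates 1 and 2, and without the block to −0.00868, −0.0084 and −0.00694 without dorsal 1, dorsal 2 and ventral 1. Edn3 turned to 0.0822 without replicate 1 and 0.088 without dorsal 1 and the block. Without replicate 3 Adm was 0.502 and Edn2 0.223, and without replicate 2 Edn3 was −0.234. Levels below the filter limit what can be said of Edn1, Edn2 and Adm.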

Other observations

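On ventral 1 several genes of the lists stood far below the other ventral arrays, and others stood far above them. Among the higher ones, Cnn1 was at 9.82 there against 7.91 and 6.83 on ventral 2 and 3, and Npr3 at 6.73 against 4.70 and 5.09. Agtr2 was at 3.76 there against 8.04 and 8.44 on ventral 2 and 3, and Plcb4 at 5.14 against 7.09 and 7.66. Kel, a blood group protease that can cleave big endothelins, was at 4.47 there and at 5.69 and 5.84 on the others. The mean of 8 sympathoadrenal markers was 4.75 on ventral 1 and 6.45 and 6.75 on ventral 2 and 3. Of the 9 endothelin and adrenomedullin genes, ventral 1 was the lowest ventral array for Ednrb, Ece1 and Calcrl and the highest for Adm, Edn1, Edn2 and Ece2.

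Among genes below the brightness filter, Apela, a peptide ligand of the apelin receptor, was at 3.52, 2.98 and 4.93 in dorsal and 3.20, 4.72 and 5.44 in ventral tissue, a spread within each tissue wider than the difference between them. The other ligand, Apln, was at 3.91, 3.72 and 3.51 in dorsal and 3.89, 4.04 and 4.10 in ventral tissue.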
